A study of Arabidopsis thaliana with 63 samples.

Results

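Described here are 8 Arabidopsis genes whose products write or remove DNA methylation: the DNA methyltransferase genes MET1, CMT2, CMT3 and DRM2, and the DNA demethylase genes ROS1, DME, DML2 and DML3. They were chosen by locus identifier, without use of their levels, and all 8 were found among the 29961 features (26870 genes and 3091 transposable elements, TEs) of the deposited RNA-seq tables. RNA was sequenced from 10-day-old Col-0 seedlings grown in long days, in 3 libraries each of h2a.w-1, of h2a.w-2 and of wild type (WT). WT carries no mutation in the histone genes, whereas both mutants lack H2A.W, the H2A variant of heterochromatin, which HTA6, HTA7 and HTA12 encode. h2a.w-1 combines the hta6-1 T-DNA allele with T-DNA alleles of hta7 and hta12, and h2a.w-2 combines the CRISPR allele hta6-2, a single-base insertion, with the same hta7 and hta12 alleles. The study describes a rearrangement in the hta6-1 line, in which a region of chromosome 1 was moved to chromosome 5. It reports that this region, which holds CMT3, was duplicated in h2a.w-1. From crosses of hta6-1 with WT it recovered hta6-1 mutants with a normal or a doubled dose of the region. The dose of this region in the h2a.w-1 seedlings sequenced here is not given in the sources used here. The series also holds 54 samples from other assays, which were not used here.

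In plants, cytosines are methylated in the CG, CHG and CHH contexts, where H is any base but G, and each context has its own enzymes. MET1 copies CG methylation after replication, CMT3 maintains CHG methylation where histone H3 carries methylated lysine 9, CMT2 methylates CHH sites in long heterochromatic TEs, and DRM2 is guided to its targets by small RNAs. ROS1, DME, DML2 and DML3 are glycosylases that cut methylated cytosine out of DNA, after which base excision repair fills in an unmethylated base. ROS1 is the main demethylase of vegetative tissue, DME is best known for its role in the central cell of the female gametophyte, and ROS1 transcripts are known to be low in plants that lack MET1 or RNA-directed DNA methylation.

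ROS1 was the 1 member that passed a test, and the sequence upstream of its annotated start is shown for that reason beside that of DME, a glycosylase gene that passed none. Both are 250-base stretches of the RefSeq TAIR10.1 genome, read 5′ to 3′ on the strand of the gene, with each CG dinucleotide, the context that MET1 maintains, in capitals.
ROS1, chr2:15314808-15315057, minus strand: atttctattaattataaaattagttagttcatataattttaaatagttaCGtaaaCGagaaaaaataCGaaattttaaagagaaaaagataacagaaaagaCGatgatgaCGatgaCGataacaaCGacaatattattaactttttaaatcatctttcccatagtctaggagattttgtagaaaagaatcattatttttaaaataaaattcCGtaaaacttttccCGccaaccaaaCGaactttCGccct
DME, chr5:1308849-1309098, plus strand: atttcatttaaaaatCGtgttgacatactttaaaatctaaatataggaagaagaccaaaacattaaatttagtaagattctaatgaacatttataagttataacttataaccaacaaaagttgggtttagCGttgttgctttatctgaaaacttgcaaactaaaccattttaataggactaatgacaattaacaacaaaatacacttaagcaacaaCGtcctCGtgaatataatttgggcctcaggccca
The letters CG, which read the same on both strands and cannot overlap themselves, occurred 11 times upstream of ROS1 and 4 times upstream of DME. At least 11 occurred in 9.24% of the 27443 upstream stretches of this length before nuclear protein-coding genes, whose median was 5. The other counts were 10 for CMT2, 7 for MET1, 7 for DRM2, 4 for DML3, 3 for CMT3 and 2 for DML2. These counts describe the letters and not their methylation, which was not analysed here.

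Levels are given as reads of single libraries, recovered as whole numbers from the deposited group means, or as normalized read counts, which are reads divided by a size factor of the library. Libraries are called A, B and C within a genotype in order of decreasing size factor, and these letters are not replicate numbers. Over the 29881 features with recovered reads, the libraries held 5812579 to 9391308 reads. The study describes its replicates as groups of randomly collected seedlings of a genotype and does not say whether replicates shared a tray, so the p-values measure the spread between such groups. HTA6 and HTA7 were low in all mutant libraries, with 42 to 65 and 82 to 96 reads in h2a.w-1 and 136 to 312 and 56 to 111 in the h2a.w-2-labelled libraries, against 751 to 949 and 532 to 795 in WT. HTA12 had 86 to 113 reads in WT and 19 in each h2a.w-1 library, but 28 (A), 107 (B) and 17 (C) in the h2a.w-2-labelled libraries, so that library B went against its label at this gene, whose locus overlaps another gene. Among the markers of other tissues, AP1 and AG of the flower had at most 8 and 3 reads and VGD1 of pollen at most 1. Of the 2 seed storage genes, CRA1 had 19, 186 and 238 reads in h2a.w-1 and at most 5 elsewhere, and SESA1 had at most 1 read in any library. CRA1 reached the mean count of 10 needed for a test only through h2a.w-1, so no test of it is given. In the root list, SCR had 140 to 249 reads, PHO1 781 to 1644 and EXP7 27 to 248. The 3 leaf and light-harvesting markers had no recovered reads, as they are among the 80 features with a mean too high for the recovery.

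Since longer transcripts give more reads, levels were compared between genes per kilobase of annotated exon. In WT, ROS1 had the highest level of the 8, with 188 ± 17.0 normalized reads per kilobase (SD, n = 3), followed by DME with 106 ± 14.4 and CMT3 with 102 ± 12.0. DRM2 (76.0 ± 6.94), CMT2 (71.4 ± 2.86) and MET1 (71.3 ± 4.03) came next, then DML2 with 56.5 ± 8.09 and, far lower, DML3 with 4.86 ± 0.663 normalized reads per kilobase. The WT libraries of DME and CMT3 overlapped, as did those of DRM2 and CMT2 and those of CMT2 and MET1, so the order within these pairs lies within the spread. With 98.2 ± 9.91 normalized reads per kilobase in the h2a.w-2-labelled libraries, ROS1 was no longer above DME, which had 106 ± 2.65 there, and their libraries overlapped.

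**Figure D1:**
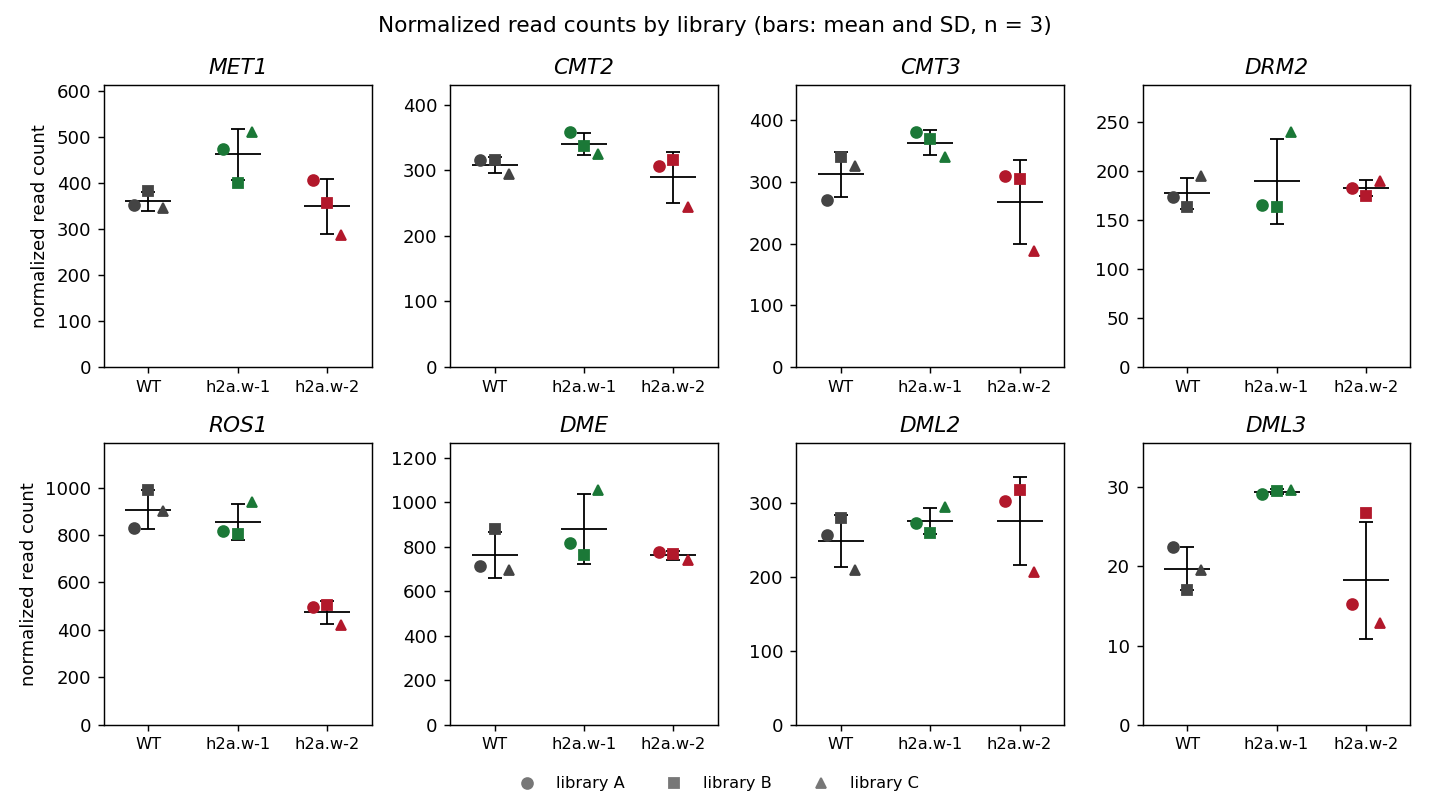
Normalized read counts (vertical axes, linear from 0) of the 8 genes in WT, h2a.w-1 and the h2a.w-2-labelled libraries, with a symbol for each library and bars for the mean and SD of 3 libraries. The 3 ROS1 points labelled h2a.w-2 lie between 419 and 505, below all WT and h2a.w-1 points. The h2a.w-1 points of MET1, CMT2, CMT3 and DML3 lie above all WT points of these genes, and the groups of DRM2, DME and DML2 overlap.

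The comparison of each mutant with WT asks whether these genes differed in the libraries labelled with that mutant. That of the mutants with each other asks whether the libraries of the 2 mutants differed. A call required both an absolute log2 difference above 1 and, in limma voom, an adjusted p-value below 0.05. The study used these thresholds with another method, DESeq2, and reported more changed genes in h2a.w-2 than the fit here called. Failing a call here is thus not failing the criterion of the study. In h2a.w-1 against WT, 0 of the 8 members were called, beside 4.86% of the 19683 features tested, and 0 passed the adjusted p-value alone, beside 18.3% of features. At an unadjusted p-value under 0.05, 2 members passed, beside 33.2% of features, and limma on log2 values with a trend gave 0 with the adjusted p-value. In the h2a.w-2-labelled libraries against WT, 0 members were called, beside 0.0408% of 19629 features, and 0 passed the adjusted p-value alone, beside 0.0459%. Here 1 member passed the unadjusted p-value of 0.05, beside 11.6% of features, and the trend fit again gave 0. Between the mutants, 0 members were called, beside 5.74% of 19576 features, and 1, ROS1, passed the adjusted p-value alone, beside 14.9%. In that comparison 4 members passed the unadjusted p-value, beside 30.5% of features, and the trend fit gave 1. Both comparisons with WT use the same WT libraries, so their values are not independent.

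ROS1 (AT2G36490, which RefSeq lists as DML1; chromosome 2 from 15307907 to 15314807, minus strand, TAIR10.1) was the clearest difference among the 8 genes. Its reads were 996, 1162 and 736 in the WT libraries (A, B, C) and 955, 846 and 823 in those of h2a.w-1. Libraries labelled h2a.w-2 held 556, 530 and 293 reads of ROS1, or 498, 505 and 419 after normalization, against 827, 991 and 901 in WT and 819, 804 and 940 in h2a.w-1. All 3 h2a.w-2-labelled libraries were thus below all 6 other libraries, at 54.9%, 55.7% and 46.2% of the WT mean, and WT and h2a.w-1 overlapped.

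Relative to WT, ROS1 in the h2a.w-2-labelled libraries had a log2 difference of -0.93 ± 0.12 (SE, n = 3 against 3), a level of 52.3% of WT with a 95% interval of 43.0% to 63.6%. The unadjusted p-value was 6.62e-05, and 17 of the 19629 features had a smaller one, but the value did not pass after adjustment over all features (limma voom, adjusted p = 0.0675). When all 9 libraries were fitted together, so that they shared an estimate of the spread, the same difference passed (limma voom, adjusted p = 0.0105), in a fit that called 38 features in place of 8. Without library B labelled h2a.w-2, the log2 difference was -0.98 (limma voom, adjusted p = 0.145).

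The h2a.w-2-labelled libraries were lower in ROS1 than those of h2a.w-1 by a log2 difference of -0.85 ± 0.12 (limma voom, adjusted p = 0.00528), a level of 55.6% with a 95% interval of 45.9% to 67.2%. This is a direct test of the difference between the mutants, and it passed the adjusted p-value but not the fold threshold. Without library B labelled h2a.w-2, the log2 difference was -0.90 (limma voom, adjusted p = 0.0122). In h2a.w-1 against WT, ROS1 differed by -0.08 ± 0.10 (limma voom, adjusted p = 0.604), with a 95% interval of 80.1% to 111% of the WT level.

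Among the 40 tested protein-coding genes nearest to ROS1 in gene order, 20 on each side, the log2 differences between the h2a.w-2-labelled libraries and WT had a median of -0.06 and ranged from -0.64 to 1.07. ROS1 was below all 40 of these genes. The adjusted p-value was passed by 0 of them, beside 0.0459% of features, and ROS1 itself did not pass there. Between the mutants the same count of neighbours had a median of 0.09 and ranged from -1.43 to 1.89. Of the 40, 39 were above ROS1, and 7 passed the adjusted p-value, beside 14.9% of features. No annotated gene overlaps ROS1 or any other member in RefSeq TAIR10.1.

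**Figure D2:**
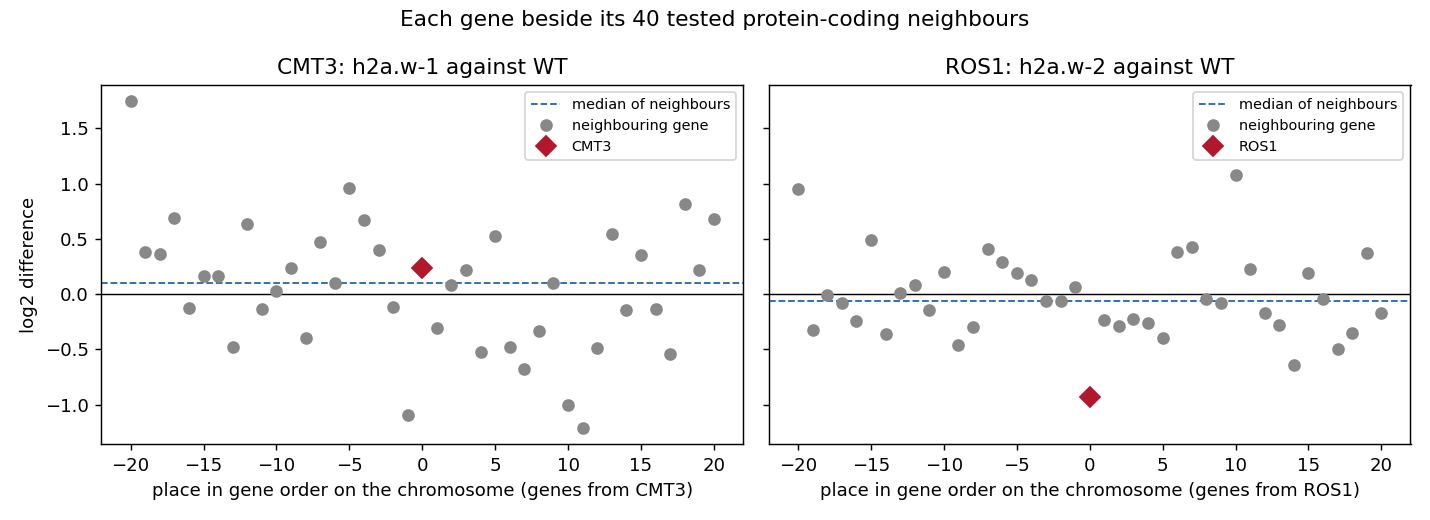
Log2 differences (vertical axis) of CMT3 in h2a.w-1 against WT and of ROS1 in the h2a.w-2-labelled libraries against WT, each as a diamond among its 40 tested protein-coding neighbours in gene order (horizontal axis), with the neighbours' median as a dashed line. ROS1 at -0.93 lies below all its neighbours, whereas CMT3 at 0.23 lies within the range of its own, whose median is 0.10.

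The other demethylases did not pass a test in any comparison. DME (AT5G04560, chromosome 5 from 1309099 to 1318520, plus strand) had 856, 1033 and 566 reads in WT, 953, 801 and 925 in h2a.w-1 and 865, 806 and 517 in the h2a.w-2-labelled libraries. Normalized, the latter were 739 to 775 and lay within the WT range of 693 to 881. The log2 difference of DME from WT was 0.20 ± 0.15 in h2a.w-1 (limma voom, adjusted p = 0.377) and, for the h2a.w-2-labelled libraries, its level was 100.3% of WT with a 95% interval of 82.8% to 122%.

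DML2 (AT3G10010, chromosome 3 from 3081735 to 3088550, minus strand) had 309, 327 and 171 reads in WT, 318, 273 and 258 in h2a.w-1 and 337, 334 and 145 in the h2a.w-2-labelled libraries. After normalization, libraries A and B labelled h2a.w-2 were above all WT libraries, at 302 and 318 against 209 to 279, and library C was below them at 207. DML2 differed from WT on the log2 scale by 0.14 ± 0.12 in h2a.w-1, and by 0.15 ± 0.18 in the h2a.w-2-labelled libraries (limma voom, adjusted p = 0.464 and 0.741).

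DML3 (AT4G34060, chromosome 4 from 16313366 to 16319426, plus strand) was the member with the fewest reads. It had 27, 20 and 16 reads in WT, 34, 31 and 26 in h2a.w-1 and 17, 28 and 9 in the h2a.w-2-labelled libraries. The h2a.w-1 libraries were close to each other at 29.1 to 29.7 normalized counts and above all WT libraries, which had 17.1 to 22.4. The log2 difference of DML3 in h2a.w-1 was 0.58 ± 0.23 (limma voom, adjusted p = 0.127), with a 95% interval of 103% to 216% of WT. For the h2a.w-2-labelled libraries the interval was 53.8% to 156% of WT.

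Among the methyltransferases, MET1 (AT5G49160, chromosome 5 from 19932114 to 19938470, plus strand) had the smallest p-value against WT in h2a.w-1. It had 425, 450 and 282 reads in WT, 554, 422 and 448 in h2a.w-1 and 453, 375 and 201 in the h2a.w-2-labelled libraries. In normalized counts, the h2a.w-1 libraries had 401 to 511 and the WT libraries 345 to 384, so that these groups did not overlap, while the h2a.w-2-labelled libraries spread over both sides of WT, from 287 to 406. The log2 difference of MET1 in h2a.w-1 was 0.35 ± 0.11, or 127% of WT with a 95% interval of 107% to 152% (limma voom, adjusted p = 0.0632). It passed the adjusted p-value in 1 alternative, without h2a.w-1 library B, at 0.45 (limma voom, adjusted p = 0.0397). For the h2a.w-2-labelled libraries, the log2 difference from WT was -0.05 ± 0.14 (limma voom, adjusted p = 0.897).

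CMT3 (AT1G69770, chromosome 1 from 26248118 to 26253687, minus strand), which lies in the region rearranged in hta6-1, had 325, 398 and 266 reads in WT and 444, 389 and 298 in h2a.w-1. The normalized counts of CMT3 in h2a.w-1, 340 to 381, were above those of WT, 270 to 340, by less than 1 count at the closest pair. In h2a.w-1 CMT3 thus had a log2 difference of 0.23 ± 0.11, or 118% of WT with a 95% interval of 98.7% to 140% (limma voom, adjusted p = 0.179), and the log2 difference was 0.13 without WT library A. The 40 nearest tested genes had a median log2 difference of 0.10, with a range from -1.21 to 1.75. Of these 40, 12 passed the adjusted p-value in either direction, beside 18.3% of features. The part of the region's dose in these values was not tested.

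The h2a.w-2-labelled libraries had 346, 319 and 132 reads of CMT3. Libraries A and B were within the WT range at 310 and 304 normalized counts, and library C was below it at 189. The log2 difference of CMT3 from WT was -0.22 ± 0.20 (limma voom, adjusted p = 0.636), with a 95% interval of 62.4% to 118% of WT, and it was -0.01 without library C. Between the mutants, CMT3 in each h2a.w-2-labelled library was below each h2a.w-1 library, by a log2 difference of -0.45 ± 0.18 (limma voom, adjusted p = 0.144), or -0.24 without library C labelled h2a.w-2.

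CMT2 (AT4G19020, chromosome 4 from 10414428 to 10421265, plus strand) had 379, 370 and 240 reads in WT, 418, 355 and 284 in h2a.w-1 and 342, 332 and 171 in the h2a.w-2-labelled libraries. Its normalized counts in h2a.w-1, 324 to 358, were above the WT range of 294 to 316, with a log2 difference of 0.14 ± 0.09 (limma voom, adjusted p = 0.301). Libraries A and B labelled h2a.w-2 had 306 and 316 normalized counts of CMT2 and C had 244, and the log2 difference was -0.09 ± 0.12 (limma voom, adjusted p = 0.756).

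DRM2 (AT5G14620, chromosome 5 from 4715105 to 4718704, minus strand) had 209, 191 and 159 reads in WT, 193, 172 and 210 in h2a.w-1 and 204, 183 and 133 in the h2a.w-2-labelled libraries. The groups overlapped in all comparisons, and h2a.w-1 library C stood above the other libraries at 240 normalized counts against 163 to 195. DRM2 had log2 differences of 0.07 ± 0.16 in h2a.w-1 and 0.05 ± 0.12 in the h2a.w-2-labelled libraries (limma voom, adjusted p = 0.788 and 0.871), and the interval for the latter was 85.3% to 126% of WT.

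**Figure D3:**
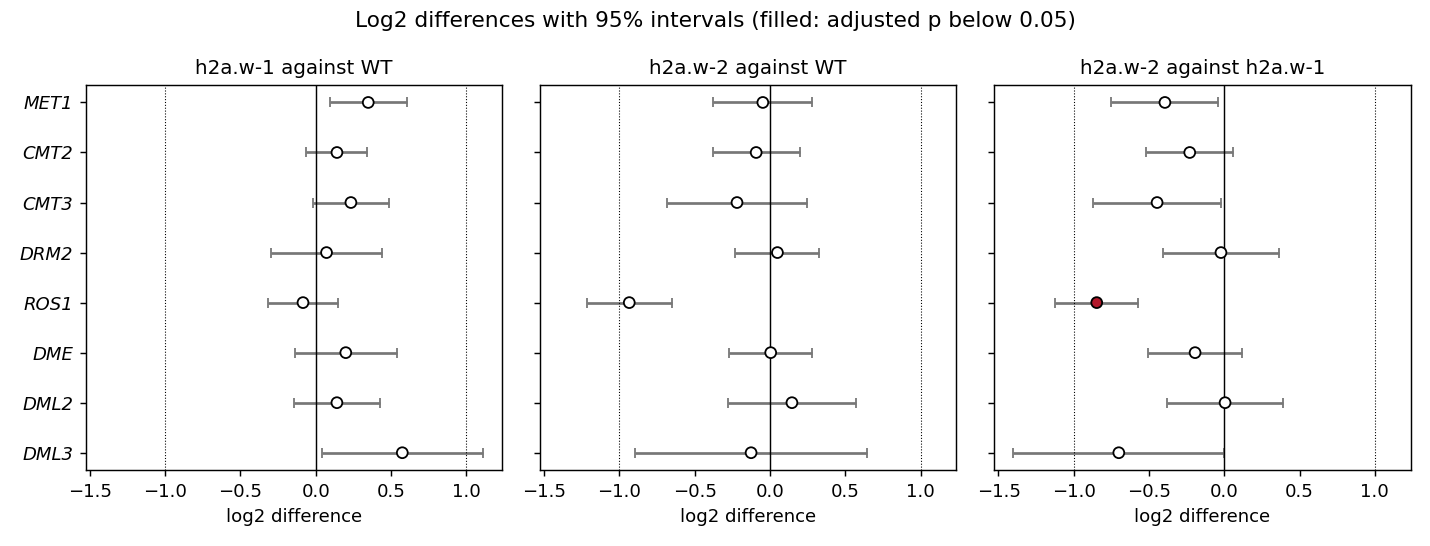
Log2 differences (horizontal axes) of the 8 genes in the 3 comparisons, with 95% intervals from limma voom and dotted lines at the fold threshold. ROS1 between the mutants, at -0.85, is the only filled point, that is, the only one with an adjusted p-value below 0.05.

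Over the list of 8, 7 log2 differences were above 0 in h2a.w-1 against WT, with a median of 0.17 beside -0.01 for all features tested. In that comparison 4 members, MET1, CMT2, CMT3 and DML3, were higher in all h2a.w-1 libraries than in all WT libraries, beside 20.3% of features, and 0 were lower in all, beside 18.4%. In the h2a.w-2-labelled libraries against WT, the median was -0.07 beside 0.00 for all features tested, 0 members were higher in all libraries, beside 10.2% of features, and 1, ROS1, was lower in all, beside 10.3%. Between the mutants the median was -0.31 beside 0.00, with 0 members higher in all h2a.w-2-labelled libraries, beside 18.8%, and 4 lower in all, CMT2, CMT3, ROS1 and DML3, beside 18.8%.

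Markers of dividing cells differed between the libraries in the same direction as some of the members. Methylation is copied at replication, and the 14 markers of dividing cells (cyclins, CDKB2 kinases, KNOLLE, PCNA, MCM helicase subunits and TSO2) were summed for each library. Their summed normalized level was 92.6%, 102% and 105% of the WT mean in the WT libraries, 123%, 122% and 113% in h2a.w-1, and 99.8%, 96.0% and 63.9% in the h2a.w-2-labelled libraries (A, B, C). The h2a.w-1 libraries were above all WT libraries (p = 0.1 in an exact two-sided permutation test, the lowest value possible with 3 against 3 libraries), and 5 of the 14 markers, CYCA1;1, MCM2, MCM3, MCM6 and MCM7, rose in h2a.w-1 by the adjusted p-value, with log2 differences from 0.41 to 0.58, while 0 fell, beside 18.3% of features that passed. Of these 5, MCM2 alone passed in the fit of all 9 libraries and whichever library was left out, while the others were lost without h2a.w-1 library A or B (adjusted p up to 0.139), and some without a WT library. CDKB2;1 (-0.07) and CDKB2;2 (-0.39) went the other way, with all h2a.w-1 libraries below all WT libraries. Of the 14 markers, 7 were higher in all h2a.w-1 libraries, beside 20.3% of features, and these 2 were lower in all, beside 18.4%. Against WT, 0 of the 14 passed in the h2a.w-2-labelled libraries, beside 0.0459% of features, and none in the trend fit. There 1 was below an unadjusted p-value of 0.05, beside 11.6% of features. Of the 14 log2 differences 12 were below 0 and 2 above. In all h2a.w-2-labelled libraries 3 markers were lower than in all WT libraries, beside 10.3% of features, and 0 were higher, beside 10.2%. Between the mutants 4, CYCB1;2, MCM2, MCM6 and MCM7, were lower in the h2a.w-2-labelled libraries by the adjusted p-value, beside 14.9% of features. All 4 calls were lost without h2a.w-1 library A or B (adjusted p up to 0.133), and some without h2a.w-1 library C or library A or B labelled h2a.w-2. In that comparison CDKB2;2 was the 1 marker with a log2 difference above 0, at 0.31. Between the mutants 8 markers were below an unadjusted p-value of 0.05, beside 30.5% of features. In all h2a.w-2-labelled libraries 11 were lower than in all h2a.w-1 libraries, beside 18.8% of features, and 0 were higher, beside 18.8%. Of the 3 root markers, PHO1 fell in h2a.w-1 (-0.65) and was higher in the h2a.w-2-labelled libraries than in h2a.w-1 (0.76) by the adjusted p-value, calls that were lost without WT library B or C or h2a.w-1 library A or B (adjusted p up to 0.112), and without h2a.w-1 library A or B or library B or C labelled h2a.w-2 (adjusted p up to 0.103). The others passed in no comparison, with log2 differences in h2a.w-1, in the h2a.w-2-labelled libraries and between the mutants of -1.31, -1.38 and -0.06 for EXP7 and -0.05, 0.20 and 0.24 for SCR. Of the 3 shoot meristem markers, WUS and CLV3 had at most 1 and 2 reads in any library and were not tested. STM was higher in the h2a.w-2-labelled libraries than in h2a.w-1 by 1.30 ± 0.16 (limma voom, adjusted p = 0.00377), beside 14.9% of features that passed. Against WT, STM passed in neither mutant, at -0.75 in h2a.w-1 and 0.56 in the h2a.w-2-labelled libraries (limma voom, adjusted p = 0.0574 and 0.395). In library C labelled h2a.w-2, 13 of the 14 markers and 6 of the 8 members had their lowest level of the 9 libraries. That library held the fewest reads (5812579). The share of all features with their lowest level there was not computed, so these counts have no background to be read against.

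In that library C, CMT3 was at 60.5%, CMT2 at 79.3% and MET1 at 79.6% of the WT mean, and libraries A and B labelled h2a.w-2 had 97.4% to 113% of these genes. ROS1 was low in all 3 libraries, including A and B, where the dividing-cell markers were near the WT mean. The part of dividing cells in the values of CMT3, CMT2, MET1 and ROS1 was not tested. In whole seedlings, fewer cells that express a gene and less of its RNA per cell cannot be told apart.

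**Figure D4:**
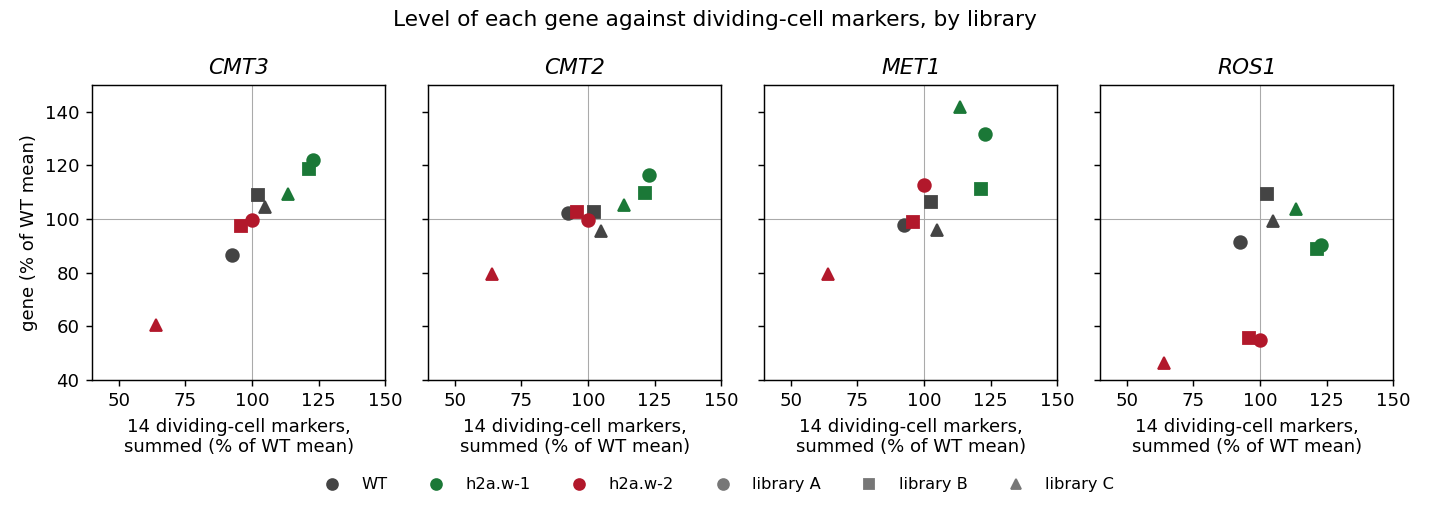
Level of CMT3, CMT2, MET1 and ROS1 (vertical axes) against the summed level of 14 dividing-cell markers (horizontal axes), both as percent of the WT mean, with a point for each of the 9 libraries. Library C labelled h2a.w-2 is lowest on both axes in all 4 panels, and the other ROS1 points labelled h2a.w-2, at 54.9% and 55.7%, lie below WT at marker levels of 99.8% and 96.0%.

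Likeness over the 9 libraries was described by Pearson's r of log2 normalized counts among 13228 features with a mean of at least 100, with no test, since the libraries share their genotypes and depths. Closest to CMT3 were CDC20.1 (r = 0.98), an activator of the anaphase-promoting complex, AT2G22610 (r = 0.98) and AT1G70600 (r = 0.98). Closest to CMT2 was CYCA1;1 (r = 0.98), an A-type cyclin, then FLN2 (r = 0.98) and AT1G30910 (r = 0.97), and closest to MET1 was MYB3R-4 (r = 0.96), a transcription factor of mitotic genes, then POK2 (r = 0.96) and AT1G19290 (r = 0.96). ROS1 was most like AT3G11070 (r = 0.96), AT3G16060 (r = 0.95) and AT2G45060 (r = 0.94), and DME was most like IDM1 (AT3G14980, r = 0.96), the histone acetyltransferase that acts with ROS1 in demethylation, then AT4G32700 (r = 0.95) and NUA (r = 0.94). The closest values were lower for DML2 (AT5G25800, r = 0.94) and DRM2 (MTM1, r = 0.90).

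Of the 7 remaining DNA methyltransferase genes listed, 6 were analysed and 3 had enough reads to be tested, namely DRM3, MET2A and DNMT2. DRM1 and CMT1 had at most 2 reads in any library and MET2B at most 4. MET2A (AT4G14140), a homologue of MET1, had 17, 8 and 6 reads in WT, 37, 20 and 26 in h2a.w-1 and 23, 27 and 21 in the h2a.w-2-labelled libraries. With a WT mean of 9.43 normalized counts, MET2A reached the count minimum against WT only through the mutants, so no test of it against WT is given. All 6 mutant libraries were above all WT libraries once normalized. Beside this, 20.3% of features were higher in all h2a.w-1 libraries than in WT, and 10.2% in all h2a.w-2-labelled libraries. Between the mutants MET2A differed by -0.09 ± 0.30. The other genes of this list were DRM3 and DNMT2, at 0.21 and 0.03 in h2a.w-1 and -0.04 and -0.12 in the h2a.w-2-labelled libraries, and between the mutants at -0.25 and -0.15. The medians of the 3 tested genes were 0.21, -0.04 and -0.15 in the 3 comparisons, beside -0.01, 0.00 and 0.00 for all features.

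The partners of maintenance methylation did not pass in any comparison. All 10 were tested, including the remodeller DDM1, the VIM proteins that bring MET1 to half-methylated DNA, and the SUVH4, SUVH5 and SUVH6 methyltransferases of H3K9, and 0 passed the adjusted p-value. At an unadjusted p-value under 0.05, 3 passed in h2a.w-1, 1 in the h2a.w-2-labelled libraries and 0 between the mutants, beside 33.2%, 11.6% and 30.5% of features, and the trend fit gave 0 with the adjusted p-value in all 3 comparisons. The medians were 0.12, -0.05 and -0.32, and the largest log2 differences were those of SUVH5 (-0.70) and IBM2 (0.54) in h2a.w-1, VIM3 (-0.53) and VIM2 (-0.39) in the h2a.w-2-labelled libraries, and SUVH5 (0.55) and VIM3 (-0.51) between the mutants. In library C labelled h2a.w-2, DDM1 was at 47.4% and VIM1 at 51.8% of the WT mean, the library in which the dividing-cell markers were also low.

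Of 11 partners of demethylation and base excision repair, 2 rose in h2a.w-1, beside 18.3% of features that passed the adjusted p-value, and 0 fell. APE1L, an endonuclease that processes the ends ROS1 leaves, rose by a log2 difference of 0.54 ± 0.14 (limma voom, adjusted p = 0.0359), and the DNA ligase gene LIG1 by 0.32 ± 0.09 (limma voom, adjusted p = 0.0381). Neither reached the fold threshold, and both calls were lost when any 1 of the 6 libraries was left out (adjusted p from 0.0535 to 0.122). In the h2a.w-2-labelled libraries against WT 0 of the 11 passed, beside 0.0459% of features, and the trend fit also gave 0. At an unadjusted p-value under 0.05, 0 passed as well, beside 11.6% of features, and IDM3 (0.28) and APE2 (0.26) differed most. Between the mutants 0 passed, beside 14.9% of features, and none in the trend fit. The unadjusted p-value was below 0.05 for 3, beside 30.5% of features, and IDM3 (-0.83) and APE2 (0.37) differed most. The medians of this list were 0.17, 0.09 and -0.12.

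Of 7 genes of the methyl donor cycle, which makes and recycles S-adenosylmethionine, 5 were tested and 0 passed in any comparison. The unadjusted p-value fell below 0.05 for 0 of them in h2a.w-1, 3 in the h2a.w-2-labelled libraries and 0 between the mutants, beside 33.2%, 11.6% and 30.5% of features. The trend fit gave 0 with the adjusted p-value, and the medians were -0.22, -0.33 and -0.14. SAM2 (-0.29) and SAM1 (-0.23) differed most in h2a.w-1, SAHH2 (-0.45) and MAT3 (-0.36) in the h2a.w-2-labelled libraries, and SAHH2 (-0.43) and SAM1 (0.26) between the mutants.

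Among 8 genes known to be silenced or released by DNA methylation, 5 were too low to test in any comparison. SDC, FIS2 and DOGL4 had at most 1 read in a library and MEA at most 6, and FWA, which is silenced by MET1-dependent methylation, had 3, 4 and 4 reads in h2a.w-1 against 1, 0 and 0 in WT and 0, 0 and 1 in the h2a.w-2-labelled libraries. PHE1, an imprinted MADS-box gene of the seed, had 12, 4 and 3 reads in WT, 25, 23 and 25 in h2a.w-1 and 3, 0 and 0 in the h2a.w-2-labelled libraries. All h2a.w-1 libraries had more PHE1 reads than all others, but it reached the count minimum only through h2a.w-1, so no test of it is given. Of the seed markers, CRA1 had 19, 186 and 238 reads in h2a.w-1 (A, B, C), and SESA1 had at most 1 read in any library. Their relation to the PHE1 reads was not tested.

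QQS, a small Arabidopsis gene whose transcription is known to vary with its methylation, rose in both mutants. It had 50, 33 and 24 reads in WT, 87, 161 and 79 in h2a.w-1 and 271, 229 and 150 in the h2a.w-2-labelled libraries. QQS had log2 differences of 1.60 ± 0.36 in h2a.w-1 (limma voom, adjusted p = 0.0195) and 2.76 ± 0.20 in the h2a.w-2-labelled libraries (limma voom, adjusted p = 0.00306). Between the mutants QQS differed by 1.16 ± 0.24 (limma voom, adjusted p = 0.0171), higher in the h2a.w-2-labelled libraries. The call against WT was lost in both mutants without WT library B (adjusted p = 0.0755 and 0.0602) and in h2a.w-1 also without WT library C (adjusted p = 0.0543), and that between the mutants without h2a.w-1 library A or C (adjusted p = 0.0743 and 0.0545). EPF2, a gene known to be silenced when ROS1 is lost, differed by -0.40 ± 0.21 in h2a.w-1 and by 0.02 ± 0.20 in the h2a.w-2-labelled libraries (limma voom, adjusted p = 0.219 and 0.971).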

How the data were processed

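RNA was extracted from 10-day-old seedlings, depleted of rRNA and made into directional libraries that were sequenced as paired ends. Per the labels, the authors used Trim Galore 0.5.0, STAR 2.7.0c, HTSeq and DESeq2 with TAIR10, and removed duplicates with Picard. The strand setting of the counting is not given in the sources used here. The deposited values are a signal, namely read counts scaled by size factors, of which each file gives the mean of a genotype's 3 libraries. Fold changes, their errors, statistics and p-values of the authors' own comparisons are also deposited and were not used.

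Reads of single libraries were recovered as the only whole numbers that give each mean, for 29881 of 29961 features (99.733%). WT reads agreed between both tables for all 29938 features solved in both, and 2000 of 2000 simulated means were solved correctly. The 80 features left out each have a mean of at least 7008.5 in some group, and the recovered features hold 88.4% to 89.7% of the summed means. Libraries of a genotype differed by more than sampling noise (chi-square per degree of freedom 3.35 to 17.5).

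limma 3.58.1 (voom, R 4.3.3) was fitted for each pair of genotypes to features whose normalized count averaged 10 or more, using the size factors of the deposited table or, between the mutants, median ratios over the 9 libraries, which also scale the printed levels. P-values were adjusted over all features (Benjamini-Hochberg) and are two-sided. The script was tested on simulated data. The members and gene lists, the rule for the genes named (the members, HTA genes, list genes past the adjusted p-value or else the 2 with the largest difference, 20 neighbours on each side and the 3 most alike features) and the alternatives were chosen with earlier results of these data known. MET3 was not analysed here. Gene positions, exons, upstream sequences and symbols are from RefSeq TAIR10.1, in which all 26870 gene identifiers matched. Python 3.11.15, scipy 1.17.1 and matplotlib 3.10.9 were used for the rest.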

Additional observations from a re-analysis of the deposited data

Results flagged for a closer look

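ROS1 differed between the mutants when this difference was tested directly, with a log2 difference of -0.8476 between the libraries labelled h2a.w-2 and those of h2a.w-1 (limma voom, adjusted p = 0.00528), and it was lower in 3 of 3 libraries. It did not pass the fold threshold. In this comparison 14.9% of features passed the adjusted p-value, and 377 of 19576 had a smaller p-value than ROS1.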

How the results depend on the processing

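The count of members called stayed at 0 in all 3 comparisons under other scalings, count minimums, the trend fits, 1 fit of all 9 libraries, an adjusted p-value under 0.1 and without any 1 library, and became 1 (ROS1, between the mutants) with the adjusted p-value alone. Of 309 values of single members under the alternatives, 286 kept their direction and their side of an adjusted p-value of 0.05, 2 passed it in addition (MET1 in h2a.w-1 and ROS1 in h2a.w-2, given above) and 21 changed sign. ROS1 ranged from -0.9997 to -0.8506 in h2a.w-2 against WT (adjusted p 0.0105 to 0.287) and from -0.90 to -0.76 between the mutants (adjusted p 0.00158 to 0.0295).

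The sign changes were of differences between -0.13 and 0.07, and their cause was not tested. In h2a.w-2 against WT, DME was -0.0259 with total recovered reads and -0.00828 with the upper quartile as scaling. Between the mutants, DML2 was -0.0223 with total recovered reads, -0.0250 with the upper quartile and -0.0218 and -0.0206 with the trend fits at pseudocounts of 1 and 8. Leaving out 1 library gave ranges, in h2a.w-1, of -0.0894 to 0.162 for DRM2. In h2a.w-2 against WT they were -0.169 to 0.0770 for MET1, -0.154 to 0.0117 for CMT2, -0.0103 to 0.113 for DRM2, -0.0577 to 0.112 for DME and -0.437 to 0.0324 for DML3, where MET1 and CMT2 changed sign without library C. Between the mutants they were -0.113 to 0.144 for DRM2 and -0.105 to 0.174 for DML2.

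Over all features, 8 were called in h2a.w-2 against WT, and 38 in the fit of all 9 libraries (59 against 9 by the adjusted p-value). Leaving out 1 library gave 3 to 10 there, 639 to 1165 in place of 957 in h2a.w-1 and 560 to 1136 in place of 1123 between the mutants. No paired analysis was possible because the deposited columns are group means that carry no replicate numbers. Few reads limit DML3, MET2A and PHE1.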
